A study of Homo sapiens with 36 samples.

Results

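Mature miRNAs of WI-38 cells in 2 kinds of senescence were compared, DNA damage response-dependent senescence at day 16 (DDR-Sen D16) and replicative senescence (RS). WI-38 is a diploid fibroblast strain from human lung. All 4 libraries of the 2 groups were taken, out of 36 libraries in 18 groups, and every one of the 1508 listed miRNA rows entered the comparison. The DDR-Sen D16 cells were proliferating WI-38 cells that received doxorubicin (DXR), a drug that breaks DNA, for 24 h and were then kept without it for 16 days. The RS cells received no drug and were passaged to a population doubling level of 54 to 56. Both groups thus carry the same genetic background, and they differ in drug exposure and in culture age at once, which cannot be told apart here. Each group had 2 biological replicates. Proliferating untreated cells (Ctrl, 2 libraries), the 14 earlier DDR-Sen libraries (D0 to D8) and 2 libraries taken 16 days after a 24 h exposure to SDS, a detergent that injures the plasma membrane (PMD-Sen D16), serve below as reference levels.

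miRNAs are short RNAs that are cut from a hairpin precursor, loaded into an Argonaute protein and guided to mRNAs mainly by their seed, the bases 2 to 8. miRNAs with the same seed are grouped into families, since their predicted targets overlap widely. In senescent fibroblasts, miRNAs of the miR-17 family, many of whose targets restrain the cell cycle, are known to decline, and miR-34a and other p53-induced miRNAs are known as part of the DNA damage response. Whether senescence reached through DNA damage and senescence reached through telomere shortening carry different miRNAs was the question of this comparison.

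The DDR-Sen D16 libraries held 393155 and 502232 counts and the RS libraries 413994 and 649167, and 360 miRNAs passed the filter on low counts. The other 1148 rows were not tested. Of these, 580 had 0 counts in all 4 libraries, none had more than 19 counts in any of them, and together they took at most 0.16% of a library. A count of 0 allows up to 3 counts, which is 4.82 to 7.76 CPM (counts relative to the TMM-scaled library total) in these libraries, for counting error only. A list of 14 fibroblast and mesenchymal miRNAs, most of whose counts were miR-21-5p, summed to 92760 and 111900 CPM in DDR-Sen D16 and 65040 and 135200 CPM in RS. Not all of its members were high. miR-196a-5p had at most 2 counts, and miR-10b-5p, miR-199b-5p and miR-214-5p had at most 24.9 CPM in any of the 4 libraries. Of 8 epithelial markers 5 were at or under the floor of 3 counts in all 4 libraries, miR-141-3p at 0, and the list summed to 33.6 and 51.7 CPM in DDR-Sen D16 and 117 and 54.7 CPM in RS, mainly miR-200c-3p, miR-200b-3p and miR-375. Of 6 listed blood markers miR-223-3p and miR-150-5p were at 0, and nearly all counts were miR-486-5p. The neuronal marker miR-124-3p was at 0, and miR-9-5p and miR-9-3p had at most 4 counts. The liver miRNA miR-122-5p was at 38.8 and 40.2 CPM in DDR-Sen D16, 169.1 CPM in RS replicate 1 and 6.43 CPM in RS replicate 2. The endothelial miR-126-3p was at 122 and 146 CPM in DDR-Sen D16 and 117 and 191 CPM in RS. The muscle miRNA miR-1-3p had 3 and 11 counts in DDR-Sen D16 and 0 and 24 in RS.

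The RS replicates stood apart from each other. Between them, 91 of the 360 miRNAs differed by more than 2-fold, against 29 between the DDR-Sen D16 replicates, and Pearson's r of log2 CPM across miRNAs was 0.958 against 0.986. RS replicate 1 was about as far from the DDR-Sen D16 libraries (82 and 101 miRNAs beyond 2-fold) as from RS replicate 2, whereas RS replicate 2 differed from them in 56 and 36. The difference between the RS replicates followed GC content, with r = 0.51 over the 329 miRNAs with a known sequence. The difference between DDR-Sen D16 and RS had r = -0.24 with GC content, which depended on the RS library. Set against RS replicate 1 alone, the DDR-Sen D16 mean gave r = -0.505 with GC content. Against RS replicate 2 alone it gave r = 0.0794. These correlations are across miRNAs of the same libraries and carry no test. For this reason the main results below are given with a left-out range. It is the range of their log2 fold change when each of the 4 libraries was left out in turn. Each left-out fit rescaled the libraries and estimated their spread anew, so the full estimate can lie outside this range. The range is not a confidence interval. The main results were also recomputed after a straight line on GC content was removed from each library (the GC correction). After that correction edgeR called 9 miRNAs higher and 13 lower by the first rule given below and 15 by the second.

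**Figure D1:**
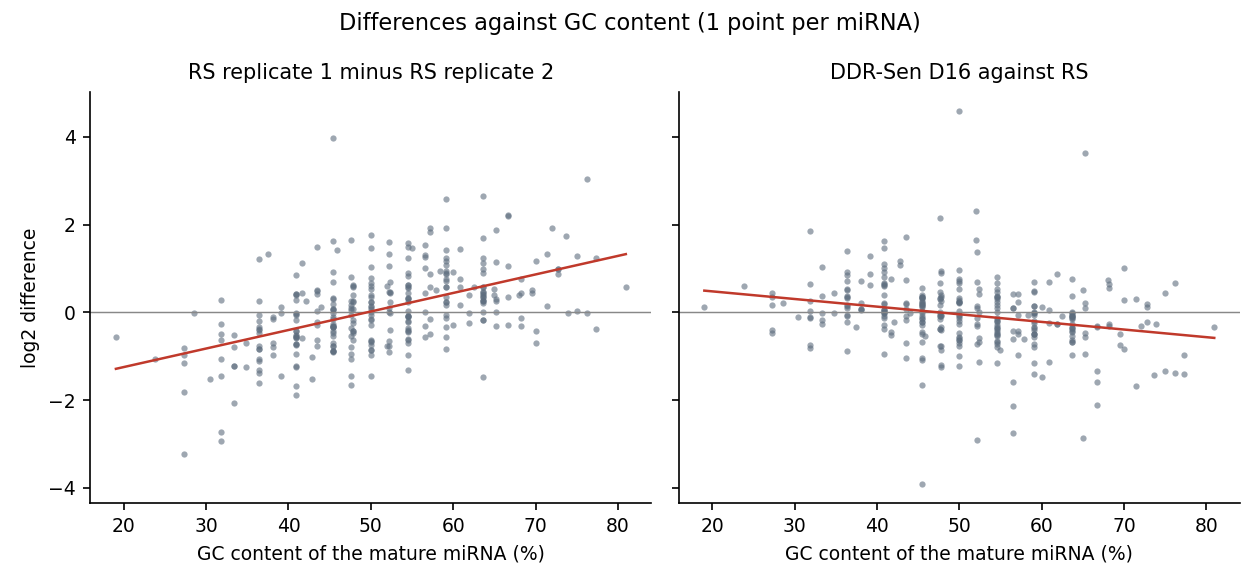
Left, log2 CPM of RS replicate 1 minus RS replicate 2, and right, log2 fold change of DDR-Sen D16 against RS, both against the GC content of the mature miRNA in percent, with 1 point per miRNA and a least-squares line. The left slope is positive (r = 0.51) and the right one shallower and negative (r = -0.24). For the DDR-Sen D16 mean, r was -0.505 against RS replicate 1 alone and 0.0794 against RS replicate 2 alone.

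The miRNAs on which the comparison turned most are shown by their mature sequence, 5′ to 3′, with the seed in capitals (RefSeq, GRCh38.p14). Of the 31 miRNAs called by either rule below, 27 had a sequence to print. The first set is the miR-181-5p family, all of whose members tested were lower in DDR-Sen D16 at unadjusted p below 0.05 and share the seed ACAUUCA.
miR-181a-5p: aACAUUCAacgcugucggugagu
miR-181b-5p: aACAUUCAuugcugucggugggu
miR-181c-5p: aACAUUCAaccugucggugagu
miR-181d-5p: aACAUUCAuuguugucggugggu

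The second set holds the miRNAs higher in DDR-Sen D16 that share a seed with another one, namely AAAGUGC in the miR-17 family, AGCAGCA in the miR-15 family and GCUACAU in miR-221 and miR-222.
miR-93-5p: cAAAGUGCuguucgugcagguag
miR-20a-5p: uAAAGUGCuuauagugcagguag
miR-106b-5p: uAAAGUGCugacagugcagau
miR-15a-5p: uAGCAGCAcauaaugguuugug
miR-15b-5p: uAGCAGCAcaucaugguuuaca
miR-221-3p: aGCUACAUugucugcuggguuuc
miR-222-3p: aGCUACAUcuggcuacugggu

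The third set has the 2 miRNAs with the largest log2 fold changes among those higher at adjusted p, and 3 abundant miRNAs that were lower. Of these 5, miR-125a-5p shares its seed with another tested miRNA, miR-125b-5p, as far as tested miRNAs with a known sequence show.
miR-374b-5p: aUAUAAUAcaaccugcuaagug
miR-337-3p: cUCCUAUAugaugccuuucuuc
miR-31-5p: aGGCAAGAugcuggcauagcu
miR-423-3p: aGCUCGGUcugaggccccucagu
miR-125a-5p: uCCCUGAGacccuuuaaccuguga

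DDR-Sen D16 and RS differed in few miRNAs. At the thresholds used for differentially expressed (DE) miRNAs in the study, a log2 fold change beyond 1 in either direction with an unadjusted p below 0.05, edgeR called 8 miRNAs higher in DDR-Sen D16 (2.22% of those tested) and 15 lower (4.17%). With Benjamini-Hochberg adjustment over the 360 miRNAs and no limit on the fold, 16 miRNAs differed at adjusted p below 0.05 (4.44%), 7 of them higher (1.94%) and 9 lower (2.5%) in DDR-Sen D16. Without RS replicate 2 these counts were 37 higher and 27 lower by the first rule and 23 by the second, and the second rule called 3 miRNAs without DDR-Sen D16 replicate 1, 5 without DDR-Sen D16 replicate 2 and 4 without RS replicate 1. By the adjusted p, 83 miRNAs differed between DDR-Sen D16 and Ctrl (23.1%) and 81 between RS and Ctrl (22.5%). The median log2 fold change over all tested miRNAs was -0.05, and 50 of them were beyond 1 in either direction. Both DDR-Sen D16 libraries were above both RS libraries for 83 miRNAs (23.1%) and below both for 66 (18.3%). At unadjusted p below 0.05 without a fold limit, 25 miRNAs were higher (6.94%) and 32 lower (8.89%), and these shares are the background for the counts in families given below.

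In each of the 16 miRNAs called at adjusted p, both DDR-Sen D16 libraries lay on the same side of both RS libraries. The sign held under every alternative setting that tested it. The 16 were picked by their difference between these same libraries, so neither point is further support. In bulk libraries, a change in the share of cells that carry a miRNA and a change in its level per cell cannot be told apart. Only miR-181a-5p, miR-374b-5p and miR-337-3p kept an adjusted p below 0.05 whichever library was left out. When edgeR was fitted on the 4 libraries alone it called 0 miRNAs at adjusted p (30 at unadjusted p below 0.05), these 3 having an adjusted p of 0.239, and DESeq2 on the 4 libraries called these 3. The other 13 lost the call without DDR-Sen D16 replicate 1 and without RS replicate 1. Without DDR-Sen D16 replicate 2, 11 were lost (all but miR-31-5p and miR-93-5p), and without RS replicate 2, 5 were lost (miR-377-5p, miR-874-3p, miR-708-5p, miR-15b-5p and miR-222-3p). Over the 16, the adjusted p with 1 library left out ranged from 2.24e-05 (miR-181a-5p) to 0.541 (miR-652-3p).

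**Figure D2:**
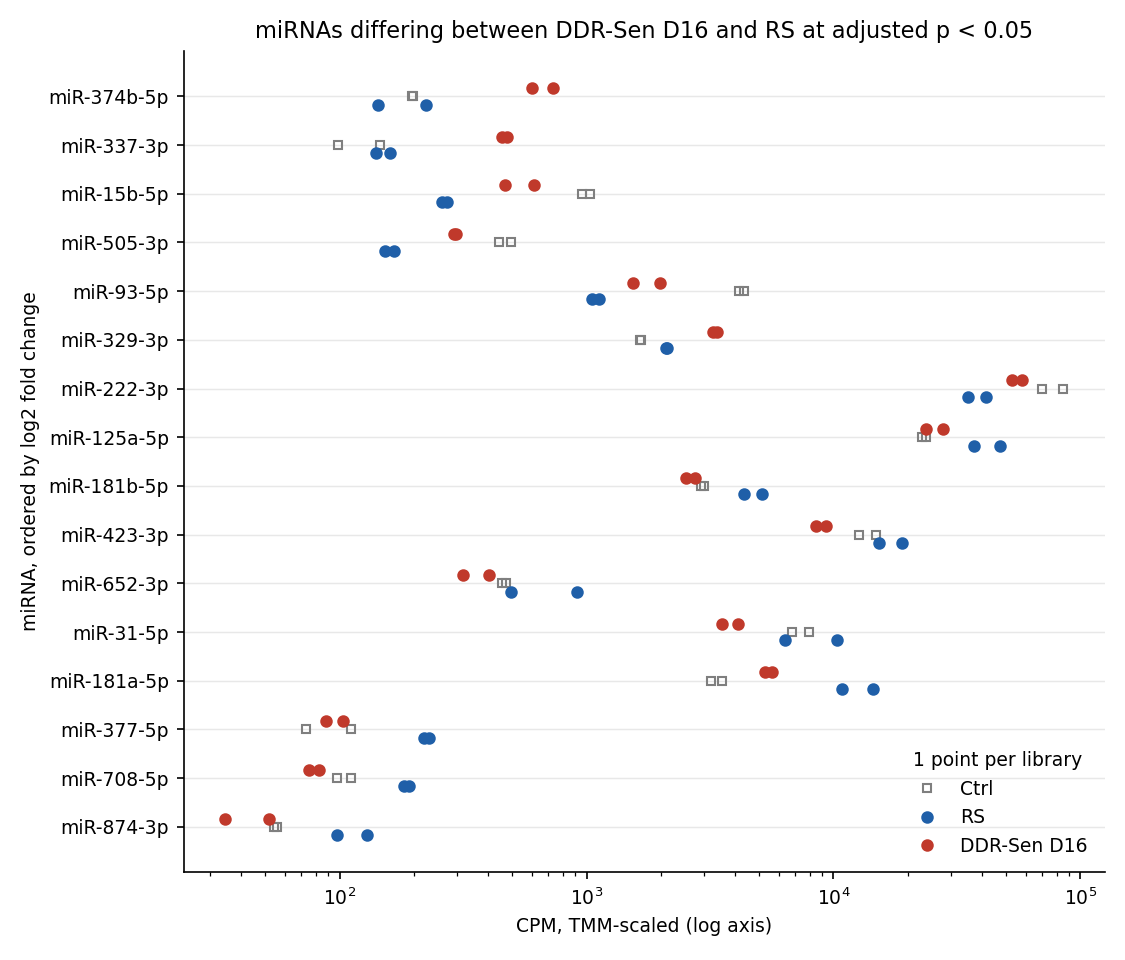
CPM (log axis) of the 16 miRNAs that differed at adjusted p below 0.05, with 1 point for each of the 2 libraries of DDR-Sen D16 (red), RS (blue) and Ctrl (open squares), ordered by log2 fold change. The rows were picked by the difference between red and blue, whose points do not overlap in any row. The Ctrl points lie between red and blue for 5 miRNAs.

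Of the 6 miR-181 miRNAs tested, miR-181a-5p and miR-181b-5p were lower in DDR-Sen D16 than in RS at adjusted p, and miR-181c-5p and miR-181d-5p at unadjusted p alone. miR-181a-5p, the family's most studied member and a regulator of lymphocyte signalling, was at 5269.8 and 5643 CPM in DDR-Sen D16 and at 10793 and 14386 CPM in RS, beside 3197 and 3541 CPM in Ctrl. The 3 groups do not overlap, with Ctrl lowest and RS highest. Between DDR-Sen D16 and RS the log2 fold change was -1.21 ± 0.18 (SE, n = 2 per group, edgeR adjusted p = 5.54e-05). It ranged from -1.40 to -0.85 with 1 library left out. Here and below, the SE comes from the fit to all 36 libraries. Against Ctrl, miR-181a-5p was higher in DDR-Sen D16 by a log2 fold change of 0.70 (edgeR adjusted p = 0.00481) and in RS by 1.90 (edgeR adjusted p = 2.05e-09).

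miR-181b-5p, which is transcribed with miR-181a-5p, was at 2737 and 2517 CPM in DDR-Sen D16, 5125 and 4347 CPM in RS and 2913 and 2992 CPM in Ctrl. DDR-Sen D16 lay below the Ctrl libraries and RS above them. The log2 fold change between DDR-Sen D16 and RS was -0.85 ± 0.18 (edgeR adjusted p = 0.00521, left-out range -0.83 to -0.73). For miR-181c-5p the levels were 31.1 and 55.6 CPM against 112 and 164 CPM in RS, with a log2 fold change of -1.65 ± 0.51 that passed the study thresholds but not the adjusted p (edgeR adjusted p = 0.0598). It passed the adjusted p after the GC correction (0.0375) and with the filter at a mean of 10 counts, and its left-out range was -2.15 to -1.21. miR-181d-5p was at 77.8 and 53.7 CPM against 119 and 146 CPM, with a log2 fold change of -1.03 ± 0.35 (edgeR adjusted p = 0.0959).

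These miRNAs come from 3 places in the genome. miR-181a-5p and miR-181b-5p each have a copy on chromosome 1 (chr1:198859108-198859130 and chr1:198858925-198858947, minus strand, in an intron of MIR181A1HG) and on chromosome 9 (chr9:124692480-124692502 and chr9:124693725-124693747, plus strand, in an intron of MIR181A2HG), and the counts do not tell the copies apart. miR-181c-5p (chr19:13874725-13874746) and miR-181d-5p (chr19:13874910-13874932) lie on the plus strand of chromosome 19 within the span of NANOS3. Of the 9 miR-181 miRNAs listed with both arms, 6 were tested, 4 were lower at unadjusted p below 0.05 and 0 higher, and the median log2 fold change was -0.94, with -0.95 to -0.78 when 1 library was left out. The opposite arm miR-181a-3p, at 46.7 and 59.5 CPM in DDR-Sen D16 and 19.1 and 41.9 CPM in RS, had both DDR-Sen D16 libraries above both RS libraries, with a log2 fold change of 0.76 ± 0.53 that did not pass the test.

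miR-374b-5p was the miRNA with the largest log2 fold change among those called at adjusted p. It lies in an exon of the lncRNA gene FTX (chrX:74218587-74218608, minus strand). Its levels were 731 and 600.4 CPM in DDR-Sen D16, 143 and 224 CPM in RS and 198 and 197 CPM in Ctrl. DDR-Sen D16 stood above all of these, and the RS libraries fell on either side of Ctrl. The log2 fold change against RS was 1.84 ± 0.28 (edgeR adjusted p = 5.54e-05, left-out range 1.57 to 2.35) and against Ctrl 1.75 in DDR-Sen D16 (edgeR adjusted p = 5.8e-05) and -0.09 in RS (edgeR adjusted p = 0.85). With a GC content of 31.8%, it kept its call after the GC correction.

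miR-337-3p belongs to the large imprinted 14q32 cluster, which is expressed from the maternal chromosome (chr14:100874553-100874574, plus strand, in an intron of MIR493HG). It was at 477 and 457 CPM in DDR-Sen D16, 141 and 159 CPM in RS and 98.8 and 146 CPM in Ctrl. RS overlapped Ctrl and DDR-Sen D16 was above both. The log2 fold change against RS was 1.63 ± 0.29 (edgeR adjusted p = 0.000525, left-out range 1.55 to 1.86), and against Ctrl it was 1.91 in DDR-Sen D16 (edgeR adjusted p = 4.32e-05) and 0.28 in RS (edgeR adjusted p = 0.553).

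The summed level of the 14q32 cluster was close to the same in the 4 libraries. Of 90 listed miRNAs 67 were tested, their median log2 fold change was 0.09 (0.02 to 0.36 with 1 library left out), and their summed level was 98524.5 and 96597 CPM in DDR-Sen D16 and 97793 and 96210.4 CPM in RS. At unadjusted p below 0.05, 7 were higher and 5 lower, and at adjusted p 2 were higher and 1 lower. miR-329-3p, made from 2 neighbouring copies (chr14:101026834-101026855 and chr14:101027151-101027172) in an intron of MEG8, was at 3261 and 3382 CPM in DDR-Sen D16, 2097 and 2110.5 CPM in RS and 1641 and 1662 CPM in Ctrl. Its log2 fold change was 0.66 ± 0.19 (edgeR adjusted p = 0.037, left-out range 0.63 to 0.80), and after the GC correction the adjusted p was 0.139.

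miR-377-5p, from an intron of MEG9 in the same cluster (chr14:101062056-101062077), went the other way. It was at 104 and 88.2 CPM in DDR-Sen D16, 219 and 230.2 CPM in RS and 73.0 and 112 CPM in Ctrl, so that RS alone stood above Ctrl. Relative to RS, the log2 fold change was -1.23 ± 0.30 (edgeR adjusted p = 0.0124, left-out range -1.27 to -1.06). The nearby miR-496 (chr14:101060628-101060649) passed the study thresholds in the other direction, at 85.5 and 86.3 CPM in DDR-Sen D16 and 21.5 and 56.3 CPM in RS (log2 fold change 1.09 ± 0.53, edgeR adjusted p = 0.306, 0.61 without RS replicate 1 and 2.12 without RS replicate 2). At unadjusted p below 0.05 the cluster's other members ran from miR-539-5p (log2 fold change -0.95) to miR-493-5p (0.71). From a single hairpin, miR-654-5p had a log2 fold change of -0.68 and miR-654-3p one of 0.56.

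**Figure D3:**
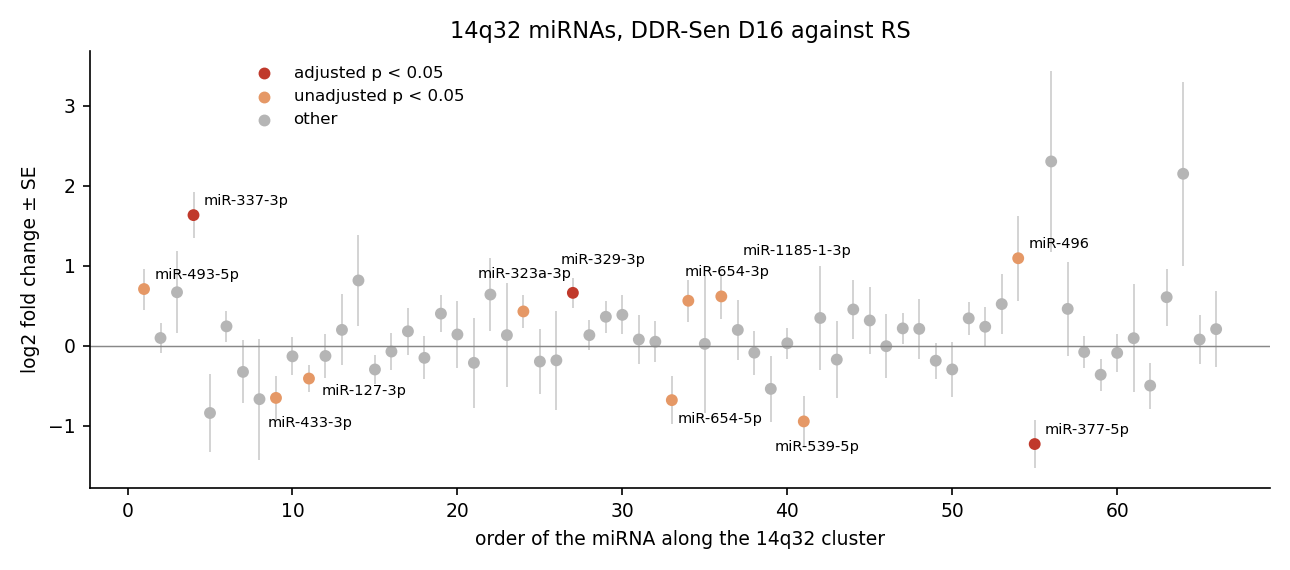
Log2 fold change of DDR-Sen D16 against RS with its SE for the 66 tested 14q32 miRNAs with a mapped position, in their order along the cluster, named where the unadjusted p was below 0.05. miRNAs above and below 0 are interspersed along the cluster.

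Several miRNAs of the miR-17 family clusters were higher in DDR-Sen D16 than in RS. The clusters of miR-17-92 and its paralogs around miR-106a and miR-106b are induced by MYC and E2F and target the CDK inhibitor p21 among others. Of 28 listed miRNAs 13 were tested, their median log2 fold change was 0.68 (0.29 to 0.61 with 1 library left out), 4 were higher and 0 lower at unadjusted p below 0.05, and 1 was higher at adjusted p. Their median against Ctrl was -1.86 in DDR-Sen D16 and -1.97 in RS. Of the 13, 9 had a positive and 4 a negative log2 fold change between DDR-Sen D16 and RS. For 2 of them both DDR-Sen D16 libraries were below both RS libraries, and for 5 above both. miR-106b-3p, the other arm of the miR-106b hairpin, was among the negative ones (-0.64 ± 0.35).

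miR-93-5p, encoded in an exon of the replication gene MCM7 (chr7:100093815-100093837, minus strand), was the member called at adjusted p. It was at 1980.4 and 1540.3 CPM in DDR-Sen D16, 1128 and 1051 CPM in RS and 4353 and 4162 CPM in Ctrl, with no overlap among the 3 groups. Between the groups, the log2 fold change was 0.69 ± 0.17 (edgeR adjusted p = 0.0124, left-out range 0.60 to 0.86), beside -1.27 in DDR-Sen D16 and -1.97 in RS against Ctrl. miR-106b-5p and miR-25-3p share this host gene. miR-106b-5p was at 111 and 144 CPM against 26.2 and 83.7 CPM (log2 fold change 1.16 ± 0.47, edgeR adjusted p = 0.185, 0.61 without RS replicate 1 and 2.41 without RS replicate 2), and miR-25-3p at 373 and 359 CPM against 217 and 239.9 CPM (0.68 ± 0.26, edgeR adjusted p = 0.157).

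On chromosome 13, miR-20a-5p (chr13:91351072-91351094, plus strand, MIR17HG) was at 70.0 and 63.3 CPM in DDR-Sen D16, 28.6 and 25.8 CPM in RS and 215 and 346 CPM in Ctrl. Its log2 fold change of 1.29 ± 0.42 passed the study thresholds (edgeR adjusted p = 0.0869, left-out range 1.31 to 1.36). For miR-17-5p of the same transcript and for miR-92a-3p, which has a copy there and another on chromosome X that the counts do not tell apart, the groups overlapped. miR-17-5p was at 82.9 and 92.1 CPM in DDR-Sen D16 and 85.9 and 54.7 CPM in RS. miR-92a-3p was at 6791 and 5242 CPM in DDR-Sen D16 and 7164 and 4836 CPM in RS, and against Ctrl its log2 fold change was -1.86 and -1.87.

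miR-15b-5p and miR-15a-5p, which target cyclins and BCL2, passed the study thresholds as higher in DDR-Sen D16, and their seed relative miR-16-5p did not pass. miR-15b-5p (chr3:160404607-160404628, plus strand, in an intron of the condensin gene SMC4) was at 614 and 468 CPM in DDR-Sen D16, 260.1 and 272 CPM in RS and 958 and 1033 CPM in Ctrl. The difference from RS was a log2 fold change of 1.02 ± 0.29 (edgeR adjusted p = 0.0385, left-out range 0.91 to 1.21), and after the GC correction the adjusted p was 0.111. miR-15a-5p (chr13:50049167-50049188, minus strand, in an intron of DLEU2) was at 38.9 and 42.2 CPM against 16.7 and 12.9 CPM (log2 fold change 1.46 ± 0.64, edgeR adjusted p = 0.24). miR-16-5p, made beside both of them, was at 1099 and 1241 CPM against 1209.6 and 1162 CPM, a log2 fold change of -0.02 ± 0.26 (left-out range -0.11 to 0.16), and its log2 fold change against Ctrl was -1.36 in DDR-Sen D16 and -1.34 in RS.

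miR-221 and miR-222, which target the CDK inhibitor p27, had a small difference in the same direction. miR-222-3p (chrX:45747036-45747056, minus strand, in an intron of MIR222HG) was at 57763 and 53046 CPM in DDR-Sen D16, 41257 and 35148 CPM in RS and 70088 and 84869.5 CPM in Ctrl, in 3 separate ranges. Relative to RS, the log2 fold change was 0.54 ± 0.16 (edgeR adjusted p = 0.0398, left-out range 0.56 to 0.66). miR-221-3p was at 18650.4 and 18256 CPM against 13088 and 14875 CPM, a log2 fold change of 0.40 ± 0.16 (edgeR adjusted p = 0.18, left-out range 0.31 to 0.63). All 4 tested arms of the pair had a positive log2 fold change, with a median of 0.47.

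Among single miRNAs, miR-31-5p, a regulator of cell adhesion and invasion encoded beside the CDKN2A locus (chr9:21512158-21512178, minus strand, in an intron of MIR31HG), was lower in DDR-Sen D16. It was at 3551 and 4109 CPM in DDR-Sen D16, 10345 and 6369 CPM in RS and 7962 and 6810.3 CPM in Ctrl. The RS libraries bracketed Ctrl, and DDR-Sen D16 was below both. Between the groups, the log2 fold change was -1.12 ± 0.25 (edgeR adjusted p = 0.00521, left-out range -1.30 to -0.73) and against Ctrl -0.95 in DDR-Sen D16 (edgeR adjusted p = 0.0056) and 0.18 in RS.

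miR-423-3p (chr17:30117131-30117153, plus strand, within an exon of NSRP1) was at 9368 and 8523 CPM in DDR-Sen D16, 19009.9 and 15334 CPM in RS and 12723 and 14810.4 CPM in Ctrl, which lay between them. The difference from RS was a log2 fold change of -0.94 ± 0.20 (edgeR adjusted p = 0.00521, left-out range -0.95 to -0.78). With a GC content of 65.2%, miR-423-3p had a log2 fold change of -0.68 after the GC correction (edgeR adjusted p = 0.00997). miR-125a-5p (chr19:51693268-51693291, plus strand, in an intron of SPACA6), of the family of lin-4, was at 27868 and 23757 CPM in DDR-Sen D16 and 47222 and 37132 CPM in RS. Ctrl, at 22851 and 23783 CPM, overlapped DDR-Sen D16 and lay below RS. Relative to RS, the log2 fold change was -0.71 ± 0.19 (edgeR adjusted p = 0.0253, left-out range -0.74 to -0.53). All 9 tested miRNAs of the miR-99/100 and miR-125 families had a negative log2 fold change, beside 192 of the 360 tested, with a median of -0.36 (-0.33 to -0.17 with 1 library left out), and 2 of them were lower at unadjusted p below 0.05.

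For miR-874-3p (chr5:137647582-137647603, minus strand, in an intron of KLHL3) the levels were 51.8 and 34.5 CPM in DDR-Sen D16, 97.8 and 129 CPM in RS and 55.9 and 54.3 CPM in Ctrl. Its log2 fold change was -1.41 ± 0.38 (edgeR adjusted p = 0.027, left-out range -1.62 to -1.06), its GC content 77.3%, and after the GC correction the adjusted p was 0.163. For miR-708-5p (chr11:79402077-79402099, minus strand, in an intron of TENM4) they were 75.2 and 82.5 CPM, 191 and 182 CPM, and 112 and 97.2 CPM, with a log2 fold change of -1.23 ± 0.33 (edgeR adjusted p = 0.0291, left-out range -1.31 to -1.08). For miR-652-3p (chrX:110055389-110055409, plus strand, in an intron of TMEM164) they were 402 and 317 CPM, 916 and 494 CPM, and 473 and 455 CPM, with a log2 fold change of -0.97 ± 0.27 (edgeR adjusted p = 0.0319) that ranged from -1.22 to -0.46 with 1 library left out. In all 3 miRNAs both Ctrl libraries lay between DDR-Sen D16 and RS.

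The arms of the miR-505 hairpin went in opposite directions. miR-505-3p was at 290.3 and 297 CPM in DDR-Sen D16, 153 and 166 CPM in RS and 443 and 495 CPM in Ctrl, a log2 fold change of 0.88 ± 0.24 against RS (edgeR adjusted p = 0.0301, left-out range 0.825 to 1.08). miR-505-5p was at 28.5 and 11.5 CPM against 93.0 and 41.9 CPM in RS, a log2 fold change of -1.76 ± 0.64 (edgeR adjusted p = 0.137, left-out range -2.39 to -1.11). Of 86 hairpins with both arms tested, 43 had arms of the same sign and 43 of opposite sign. Both arms passed an unadjusted p below 0.05 in 2 of them, miR-505 and miR-654, with opposite signs in each.

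The remaining miRNAs called at the study thresholds were read at low levels. miR-490-5p was at 59.6 and 26.9 CPM in DDR-Sen D16 and 157 and 80.5 CPM in RS (log2 fold change -1.47 ± 0.48, edgeR adjusted p = 0.0869). Its left-out range was -2.01 to -0.93. miR-130b-3p was at 49.3 and 46.0 CPM against 105 and 91.8 CPM (log2 fold change -1.04 ± 0.38, edgeR adjusted p = 0.15). miR-130a-3p, which has the same seed, was at 67.4 and 74.8 CPM against 97.8 and 206 CPM (-1.10 ± 0.49, edgeR adjusted p = 0.243), and its log2 fold change was -0.32 without RS replicate 2. miR-383-5p was at 10.4 and 24.9 CPM against 88.3 and 58.0 CPM (log2 fold change -1.98 ± 0.77, edgeR adjusted p = 0.168), and miR-331-5p at 23.3 and 19.2 CPM against 76.3 and 38.6 CPM (-1.41 ± 0.54, edgeR adjusted p = 0.159). The joined row of miR-3180 and miR-3180-3p overlapped between groups, at 10.4 and 24.9 CPM against 81.1 and 20.9 CPM. With 1 library left out, the log2 fold change of miR-383-5p ran from -2.77 to -1.43, that of miR-331-5p from -1.71 to -0.86 and that of the joined row from -2.22 to -0.19. miR-365a-5p had 2 and 1 counts in DDR-Sen D16 and 8 and 8 in RS, a ratio of RS to DDR-Sen D16 of 4.65 with a 95% counting interval of 1.33 to 24.9. miR-3173-5p had 3 and 3 counts in DDR-Sen D16 and 0 in both RS libraries, which puts both groups at or under the floor of 3 counts, so no fold is given.

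Against Ctrl, the 16 miRNAs fell into 4 patterns, with the comparisons sharing their control and senescent libraries. At adjusted p below 0.05, 5 differed from Ctrl in both kinds of senescence, and in each of these RS was farther from Ctrl than DDR-Sen D16 was (miR-181a-5p upward, miR-93-5p, miR-505-3p, miR-15b-5p and miR-222-3p downward). Another 5 differed from Ctrl in DDR-Sen D16 and did not pass in RS, namely miR-374b-5p, miR-337-3p and miR-329-3p (higher) and miR-423-3p and miR-31-5p (lower). In RS alone 4 passed, all higher, namely miR-181b-5p, miR-377-5p, miR-125a-5p and miR-874-3p. miR-708-5p and miR-652-3p passed in neither.

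The earlier days of DDR-Sen place the D16 levels in time. Most of these miRNAs were picked by their difference from the same RS libraries, so positions relative to RS are partly set by that choice. miR-181a-5p stayed between 3533 and 4566 CPM in all 14 libraries from D0 to D8, below both D16 libraries and both RS libraries. Both Ctrl libraries were below these as well. miR-374b-5p had a mean of 314.2 CPM at D2 and 780.5 CPM at D3, and all 14 earlier libraries were above both RS libraries. miR-337-3p had a mean of 199 CPM at D0, 326 CPM at D2 and 467 CPM at D16, and again the 14 libraries were above both RS libraries and below both of D16. miR-329-3p had 5 of the 14 below RS and 9 above it, with a mean of 1720.0 CPM at D0 and 2979.8 CPM at D8.

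miR-31-5p had a mean of 11372 CPM at D0, 8151 CPM at D3 and 5539 CPM at D8, and all 14 earlier libraries were above both of D16. miR-93-5p had a mean of 3749 CPM at D0, 2211 CPM at D3 and 1746 CPM at D8, and miR-20a-5p one of 278 CPM at D0 and 94.2 CPM at D8, with every earlier library above both RS libraries in either case. Both Ctrl libraries were above both RS libraries too, for miR-93-5p and for miR-20a-5p. miR-222-3p was highest at D4, with a mean of 86314 CPM, and its level at D16 (55405 CPM) was close to that at D0 (55509 CPM). Of the miRNAs higher in RS, miR-423-3p, miR-181b-5p, miR-377-5p, miR-125a-5p and miR-874-3p were below both RS libraries in all 14, miR-708-5p in 13 and miR-652-3p in 10. For each of these miRNAs both Ctrl libraries were also below both RS libraries, so the position is not particular to DDR-Sen. miR-31-5p, also higher in RS, was below both RS libraries in 2 of the 14, above both in 2 and between them in 10.

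**Figure D4:**
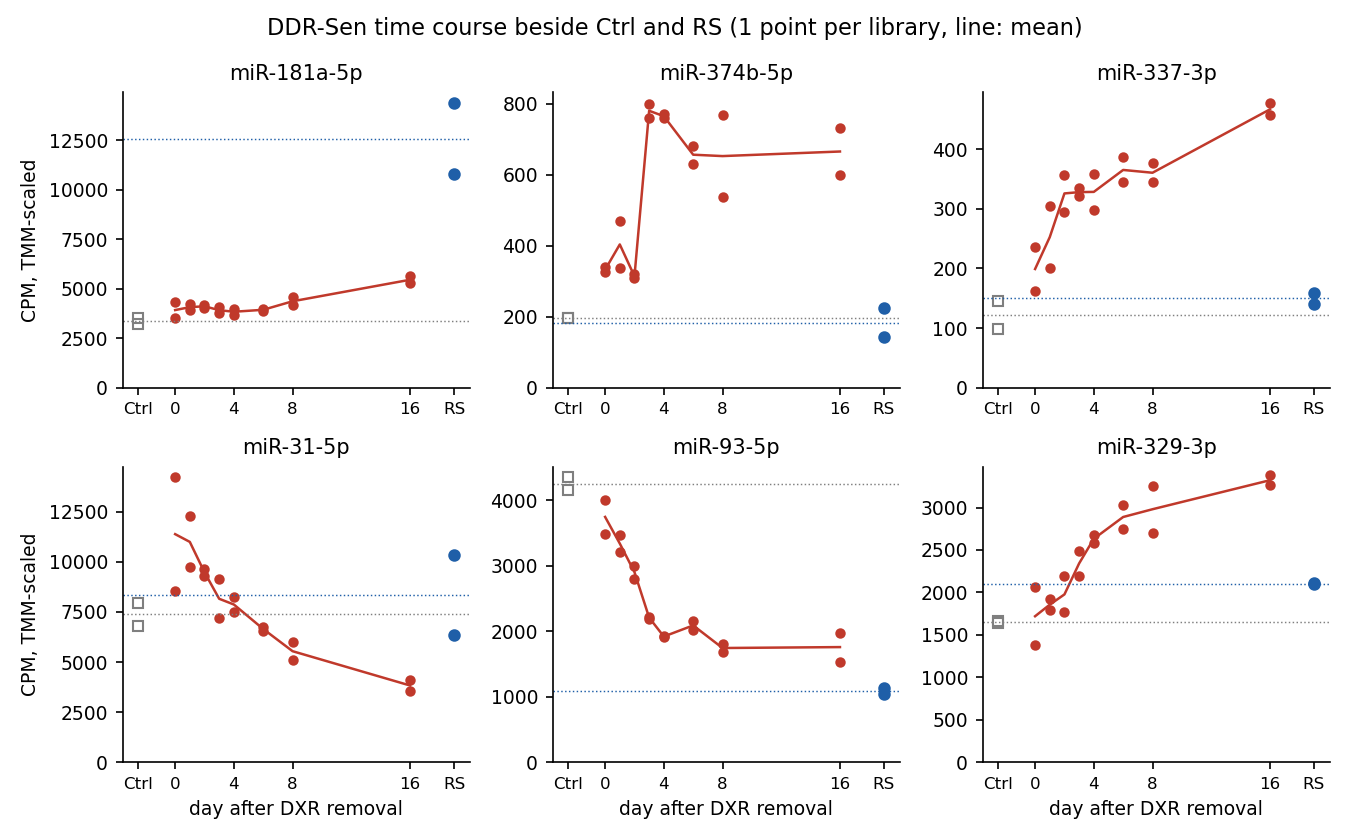
CPM of 6 miRNAs in the DDR-Sen libraries by day after DXR removal (red, 1 point per library, line through the means), with Ctrl (open squares, left) and RS (blue, right) and dotted lines at their means. miR-374b-5p and miR-337-3p stay above RS from D0 on, miR-181a-5p stays below it, and miR-31-5p and miR-329-3p cross its range.

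PMD-Sen D16 was set against the same RS libraries, so that this comparison is not independent of the one above. By adjusted p, 33 miRNAs differed (9.17%), and 9 of the 16 were among them (miR-181a-5p, miR-374b-5p, miR-181b-5p, miR-93-5p, miR-125a-5p, miR-505-3p, miR-652-3p, miR-15b-5p and miR-222-3p). The log2 fold change against RS of miR-181a-5p was -1.03 in PMD-Sen D16 beside -1.21 in DDR-Sen D16, that of miR-15b-5p 1.58 beside 1.02, and that of miR-93-5p 1.04 beside 0.69. For miR-337-3p it was 0.73 (edgeR adjusted p = 0.0999) beside 1.63, and for miR-31-5p -0.51 (edgeR adjusted p = 0.177) beside -1.12. Whether PMD-Sen D16 and DDR-Sen D16 differed in these miRNAs was not tested here.

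In most of the other families few or no members passed the test, which does not show that their levels were equal. Of the p53-induced miRNAs 6 of 9 were tested and none passed at unadjusted p below 0.05 (median log2 fold change -0.26). With 1 library left out this median ran from -0.37 to 0.10. miR-34a-5p, the p53 target that restrains SIRT1 and the cell cycle, was at 508 and 595 CPM in DDR-Sen D16 and 444 and 697 CPM in RS, with Ctrl at 352 CPM in both libraries. Its log2 fold change between them was -0.05 ± 0.26, with -0.34 without RS replicate 1 and 0.45 without RS replicate 2. The let-7 family (10 tested, median 0.09), the miR-29 family (5, -0.08), the miR-143 and miR-145 cluster (4, 0.07), the miR-199 and miR-214 cluster (5, 0.53) and the HOX-cluster miRNAs (2, 0.26) also had 0 members at unadjusted p below 0.05 in edgeR. Among these, the left-out range of the median was -0.02 to 0.26 for let-7, -0.49 to 0.92 for miR-29, -0.07 to 0.91 for miR-143 and miR-145, 0.05 to 0.77 for miR-199 and miR-214 and 0.15 to 0.52 for the HOX-cluster miRNAs. No member passed either among the miRNAs that overlap snoRNA or tRNA genes (7 tested, median -0.22), the blood and endothelial miRNAs (2, -0.42) and the miR-320 family with miR-484 (4, -0.63). With 1 library left out, the median of the snoRNA or tRNA list ran from -0.53 to -0.13 and that of the blood and endothelial list from -0.43 to -0.26. That of the miR-320 list was 0.22 without RS replicate 1 and -0.95 without RS replicate 2.

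In the miR-30 family, which targets many epithelial and fibrosis genes, 2 of 8 were higher at unadjusted p below 0.05. miR-30c-5p was at 3479 and 3106 CPM in DDR-Sen D16 and 1553 and 2392 CPM in RS (log2 fold change 0.74 ± 0.28, edgeR adjusted p = 0.157), and miR-30a-3p at 824 and 659.9 CPM against 482 and 541 CPM (0.53 ± 0.23, edgeR adjusted p = 0.226). The log2 fold change of miR-30c-5p was 0.46 without RS replicate 1 and 1.22 without RS replicate 2, and it passed the adjusted p without RS replicate 2 (0.0308) and in thinned counts (0.0287), as miR-30a-3p did in thinned counts (0.0187). In the miR-130a, miR-130b, miR-148 and related families 1 of 6 was higher, miR-148b-3p (0.80 ± 0.32, edgeR adjusted p = 0.198), and 2 lower. The log2 fold change of miR-148b-3p was 0.49 without RS replicate 1 and 1.35 without RS replicate 2 (edgeR adjusted p = 0.0443). In the cluster of miR-532-5p 1 of 9 was higher, miR-532-5p (0.67 ± 0.31, edgeR adjusted p = 0.272, left-out range 0.50 to 1.01). The median of that cluster was -0.42, with 0.28 without RS replicate 1 and -0.64 without RS replicate 2. The clusters of miR-23, miR-27 and miR-24 (10 tested, median -0.35), the cluster of miR-424 and miR-503 (7, -0.22) and the miR-193 and miR-365 clusters (6, -0.31) had 1 lower member each and 0 higher ones. The sign of these medians depended on single libraries, with left-out ranges of -0.53 to 0.17, -0.58 to 0.49 and -0.82 to 0.19. Among inflammation-responsive miRNAs, 1 of 11 passed, miR-31-5p, with a median of -0.05 that was -0.22 without DDR-Sen D16 replicate 2 and 0.12 without RS replicate 1.

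**Figure D5:**
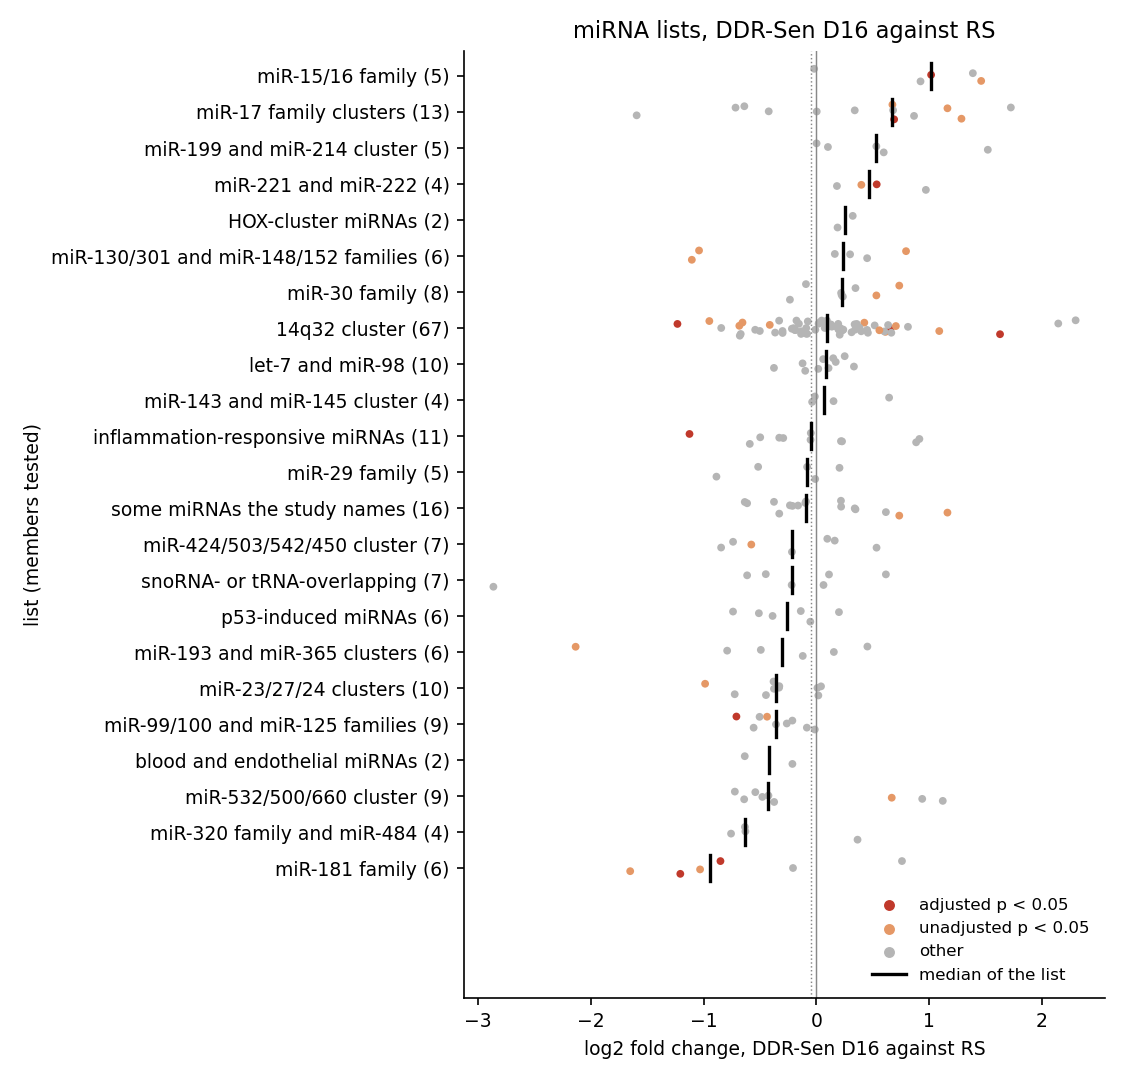
Log2 fold change of DDR-Sen D16 against RS for the tested members of 23 miRNA lists, 1 point per miRNA with random vertical spread, coloured by unadjusted and adjusted p, with a black bar at the median of each list and a dotted line at the median of all 360 miRNAs. With all libraries the median is 1.02 for the miR-15/16 family, at the top (0.60 without DDR-Sen D16 replicate 2), and -0.94 for the miR-181 family, at the bottom. Without RS replicate 2 the medians of the miR-320 list (-0.95) and of the miR-193 and miR-365 clusters (-0.82) lie below that of the miR-181 family (-0.78).

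A list of 16 of the miRNAs that the study names had a median log2 fold change of -0.09 between DDR-Sen D16 and RS, 2 of them were higher at unadjusted p below 0.05 (miR-106b-5p and miR-30c-5p), 0 were lower and 0 passed the adjusted p in edgeR. The left-out range of the median was -0.02 to 0.40. The list is not complete, and miR-374b-5p, described above, is also named by the study. These miRNAs were picked by the study on these same libraries. miR-155-5p, known from activated immune cells, was at 949 and 815 CPM in DDR-Sen D16, 1589 and 634 CPM in RS and 8830.3 and 9908 CPM in Ctrl. Its log2 fold change against Ctrl was -3.41 in DDR-Sen D16 and -3.08 in RS, and -0.33 ± 0.26 between the 2 kinds of senescence, a difference that was 0.47 without RS replicate 1 and -0.72 without RS replicate 2. miR-664a-3p was at 303 and 249 CPM in DDR-Sen D16 and 179 and 180.3 CPM in RS, beside 21.5 and 28.6 CPM in Ctrl (log2 fold change 0.62 ± 0.41 between them). miR-486-5p, a miRNA of the blood list, was at 599 and 395 CPM in DDR-Sen D16, 1047 and 497 CPM in RS and 202 and 194 CPM in Ctrl (log2 fold change -0.63 ± 0.36). The left-out range was -0.95 to -0.01. The other blood markers that were listed had at most 4 counts in any of the 4 libraries.

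Of the 10 miRNAs with the most reads, miR-222-3p and miR-125a-5p passed the adjusted p and the other 8 did not. let-7a-5p was at 123108 and 97946 CPM in DDR-Sen D16 and 97306 and 101809 CPM in RS, with a log2 fold change of 0.15 ± 0.20. miR-21-5p was at 63354 and 79389 CPM in DDR-Sen D16 and at 46780.4 CPM in RS replicate 1 and 101038 CPM in RS replicate 2, so that its log2 fold change was -0.50 without RS replicate 1 and 0.74 without RS replicate 2. miR-100-5p (-0.08 ± 0.17), miR-10a-5p (0.19 ± 0.18), miR-125b-5p (-0.26 ± 0.13), let-7f-5p (0.25 ± 0.23), miR-26a-5p (0.05 ± 0.18) and miR-30a-5p (0.35 ± 0.23) likewise did not pass. Without RS replicate 1 and without RS replicate 2 in turn, the log2 fold change was -0.03 and 0.99 for miR-30a-5p (edgeR adjusted p = 0.0193 in the latter), -0.22 and 0.20 for miR-100-5p, and -0.15 and 0.42 for miR-26a-5p. The left-out range was 0.07 to 0.32 for let-7a-5p, 0.12 to 0.53 for let-7f-5p, 0.20 to 0.31 for miR-10a-5p and -0.23 to -0.17 for miR-125b-5p.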

How the data were processed

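Small RNA libraries were prepared from total RNA of WI-38 cells with the NEXTFLEX Small RNA-Seq kit, whose adapters and PCR can favour some sequences. DXR was given at 250 nM. The authors aligned reads with the exceRpt pipeline against GRCh38 and miRBase, and deposited expected counts per mature miRNA (54288 values, of which 1003 were not whole). These were rounded to whole numbers here. PCR reads without molecular identifiers are not independent molecules, so floors and intervals cover counting error only.

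All 36 libraries of 18 groups (81668 to 1933435 counts, median 376989) were fitted with edgeR 4.0.16 (R 4.3.3, limma 3.58.1): TMM scaling, filterByExpr, quasi-likelihood test without a block, contrast DDR-Sen D16 minus RS, two-sided. The biological coefficient of variation was 20.9%. The study's thresholds (unadjusted p below 0.05, absolute log2 fold change above 1) and Benjamini-Hochberg adjusted p below 0.05 over 360 miRNAs were used. With 2 replicates per group and no label that says how separately they were grown, p-values measure the spread between libraries. That spread was estimated over all 18 groups, with 18 residual degrees of freedom, and not from the 4 compared libraries alone. The RS replicates had the largest median absolute log2 difference of any group (0.572, beside 0.292 in DDR-Sen D16). The SE and p can therefore understate the spread within RS. Log2 CPM used a prior count of 2.

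Named miRNAs were those called by either rule, the 10 most abundant, 16 of those the study names, and of each of 23 lists the most abundant member and the 2 with the largest change at a mean of at least 100 CPM. Others named in the text were chosen after their values were seen. The comparison and the lists were chosen with earlier results of these data known. Sequences and positions came from RefSeq (GRCh38.p14). Alternatives were other scaling, filters and libraries, a replicate block, thinned counts, DESeq2 1.42.0 and, chosen after seeing the data, a GC correction, only miRNAs with a GC value, and the block on the 4 libraries. The fit was tested on simulated data. Figures used matplotlib 3.10.9.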

Additional observations from a re-analysis of the deposited data

Results flagged for a closer look

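For 5 of the 16 miRNAs called at adjusted p, both DDR-Sen D16 libraries lay on one side of both Ctrl libraries and both RS libraries on the other. The log2 fold changes of DDR-Sen D16 against RS were -0.94 for miR-423-3p, -0.85 for miR-181b-5p, -1.41 for miR-874-3p, -1.23 for miR-708-5p and -0.97 for miR-652-3p, with RS above Ctrl in each. The difference between the 2 kinds of senescence is the one tested in the report. Against Ctrl, none of the 5 passed an adjusted p below 0.05 in both groups. miR-423-3p passed in DDR-Sen D16 alone, miR-181b-5p and miR-874-3p in RS alone, and miR-708-5p and miR-652-3p in neither. Changes from Ctrl in opposite directions are thus not shown for any of them.

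Among the miRNAs that the filter on low counts left untested, miR-135b-5p had 4 and 6 counts in DDR-Sen D16 and 0 in both RS libraries, and it was the 1 untested miRNA with over 3 counts in both libraries of one group and 0 in both of the other.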

How the results depend on the processing

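The 8 higher, 15 lower and 16 adjusted calls depended on the filter, the libraries in the fit and single replicates. Without a filter they were 23, 21 and 5, and with a mean of at least 10 counts 5, 15 and 18. DESeq2 on the 4 libraries alone gave 3, 9 and 3, and edgeR on these libraries 6, 12 and 0, with 30 at unadjusted p below 0.05. Thinning every library to the smallest total gave 8, 6 and 14. With 1 replicate left out, its lone partner assumed to vary like the other groups, the calls ranged from 7 to 37, 12 to 27 and 3 to 23, with the highest counts without RS replicate 2. That fit moved the median of all miRNAs to 0.19, against -0.05 in the full fit, and gave miR-335-5p a log2 fold change of 0.99, against -0.66 without RS replicate 1 and -0.10 with all libraries. The causes were not tested.

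The replicate numbers did not pair the samples by the labels (r of the replicate differences of DDR-Sen D16 and RS 0.24, range -0.46 to 0.37 over all 153 pairs of groups). The replicate block gave 7, 16 and 16 calls in all libraries and 5, 13 and 0 in the 4 libraries, with 47 at unadjusted p below 0.05 in edgeR.

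DESeq2 size factors (9, 15, 16), total counts (9, 14, 14), DESeq2 on all libraries (9, 14, 17), the GC correction (9, 13, 15) and only miRNAs with a GC value (8, 12, 14) gave numbers of calls within 1.5 times. The miRNAs called were not all the same, and 12 of the 16 kept the adjusted call after the GC correction. Depth limits miRNAs under the floor of 3 counts, 4.82 to 7.76 CPM.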
